A study of Rattus norvegicus with 12 samples.

Results

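Cytosolic ribosomal proteins are the protein parts of the ribosome that translates nuclear messages. Their genes were taken from a rat RNA-seq count table as the protein-coding rows with a gene name of the Rpl, Rps or Rplp form and at least 10 counts in each of the 12 libraries. The members were thus chosen by their names and by these counts. This gave 76 members with 69 distinct symbols, out of 101 protein-coding rows with such a name and 32545 rows in all. The other 25 rows stayed under the minimum in at least 1 library. Of the members, 48 belonged to the large subunit and 28 to the small subunit, and 65 had annotated introns while 11 had none. The gene description in the table named a ribosomal protein for 75 of the 76, and Rpl41 had no such description. All 76 members passed the filter on low counts and were tested.

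The libraries came from 4 groups of cultures with 3 biological replicates each. GS_diff2 were GS cells in CMM medium with EGM2, which the labels give as differentiation toward cardiomyocytes and endothelium. GS_diff1 were GS cells in CMM medium alone, tied to cardiomyocyte differentiation. GS were rat cardiac fibroblasts immortalized with viral Sall4 and Gata4 and left undifferentiated, and GS_diff1 and GS_diff2 carry the same factors. RCF were the untreated, wild-type parental cardiac fibroblasts. Libraries held 16255682 to 23117864 counts.

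Each ribosome has a large subunit, which forms the peptide bonds, and a small subunit, which reads the message. Ribosomal protein genes are among the most active genes of dividing cells, and their messages typically begin with a C followed by a run of pyrimidines, the terminal oligopyrimidine (TOP) motif, through which growth signals control their translation. Rat and other mammalian genomes also hold many intronless copies of these genes, made from their messages.

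The first bases of the members' messages are shown because they are a feature that the choice by name and counts did not use. RefSeq promoter entries in the GRCr8 build were found by symbol for 54 of the 69 symbols, of which 49 had annotated introns in the count table. For the other 5 symbols, counted on intronless rows, the RefSeq entry can be another locus. Shown are stalk proteins, members with large changes, paralogs, and Rpl31 as a long run. The lines below hold 30 bases on the strand of the gene, 15 before the annotated start and 15 from it on, with an unbroken run of C or T that opens with C at the start in capitals.
Rplp0, chr12:46718376-46718405, minus strand: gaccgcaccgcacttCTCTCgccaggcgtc
Rplp1, chr8:71290858-71290887, minus strand: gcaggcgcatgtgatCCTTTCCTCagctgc
Rpl17, chr18:70856261-70856290, plus strand: tagccttcgcgcttcCTCTTCCTgttagcg
Rpl34, chr2:221962269-221962298, minus strand: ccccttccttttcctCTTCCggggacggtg
Rpl31, chr9:49143096-49143125, plus strand: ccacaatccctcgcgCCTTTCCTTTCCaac
Rpl12, chr3:36661925-36661954, plus strand: ggagcaacatccgtcttttcggctttcggt
Rps27, chr2:177964592-177964621, minus strand: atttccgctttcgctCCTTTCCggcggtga
Rps27l, chr8:76443643-76443672, plus strand: gtttattcatttgtcattatttgtggtgtc
Rpl22l1, chr2:113683181-113683210, plus strand: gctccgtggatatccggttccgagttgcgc
Rpl7l1, chr9:21695703-21695732, plus strand: agctgcagatgcattgtgggaagcctttaa

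A run of at least 4 such bases stood exactly at the annotated start in 22 of the 54 symbols, or 40.7% (exact binomial 95% interval 27.6 to 55.0%), against 4.37% of all 33469 promoter entries. Among the 49 symbols with annotated introns the share was 38.8%. Rpl31 had a run of 12 bases and Rplp1 of 9. When the run could begin up to 5 bases to either side, the shares were 66.7% of the members and 28.6% of all entries. Rps27 held a run at its start and its paralog Rps27l held none, nor did Rpl22l1 and Rpl7l1. Rpl12 held none exactly at its annotated start, but a run of 6 bases began within 5 bases of it. The longest such run within 5 bases was 1 base in Rps27l, 2 in Rpl22l1 and 1 in Rpl7l1. It was as short in some standard members, at 1 base in Rpl41 and Rps16 and 2 in Rpl6 and Rpl18. A short run was thus not particular to paralogs, while 36 of the 54 symbols held a run of at least 4 there. The starts of Rpl7 and Rpl22 are not shown. Of the 49 with annotated introns, 19 held a run of at least 4 bases exactly at the start. Their median log2 fold change in GS against RCF was 0.46, and that of the 30 without was 0.38. In GS_diff1 against GS the medians were -0.38 and -0.28, and in GS_diff2 against GS -0.26 and -0.18, without a test. Matches of letters are a description of annotated starts, which were not measured here.

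The members took 3.6, 3.68 and 3.58% of all counts in the GS_diff2 libraries and 3.31, 3.52 and 3.43% in GS_diff1. They took 4.03, 3.85 and 4.1% in GS, and 3.32, 3.23 and 3.36% in RCF. The GS libraries were the highest, with no overlap with any other group. The means were 3.62 ± 0.0555% in GS_diff2, 3.42 ± 0.103% in GS_diff1, 4.0 ± 0.132% in GS and 3.30 ± 0.0649% in RCF (SD, n = 3 each). No test was made on these sums. Large-subunit members averaged 2.33% of counts in GS_diff2, 2.22% in GS_diff1, 2.61% in GS and 2.14% in RCF, and small-subunit members 1.29, 1.20, 1.38 and 1.16% in the same order. Genes of the mitochondrial genome, which share the denominator, took 1.83% of counts in GS_diff2, 1.59% in GS_diff1, 0.244% in GS and 2.21% in RCF. Without these genes the members' shares were 3.69% in GS_diff2, 3.47% in GS_diff1, 4.01% in GS and 3.38% in RCF. In bulk RNA, fewer cells of a type and less RNA per cell cannot be told apart.

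**Figure D1:**
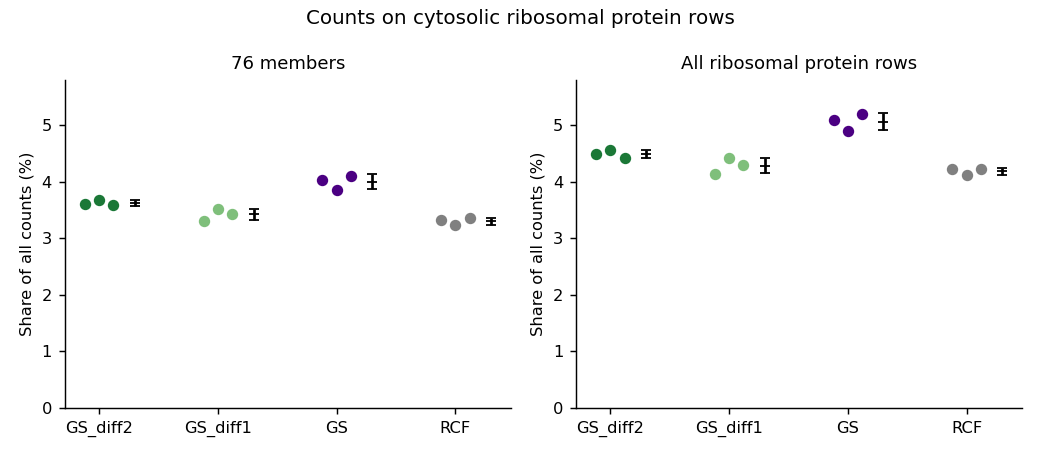
Share of all counts in percent (y axis) for each library of the 4 groups (x axis), on the 76 members (left) and on all 634 rows whose description names a cytosolic ribosomal protein (right). Points are libraries, and the line with bars is the mean with its SD. On the members the GS libraries lie between 3.85 and 4.1%, above the libraries of the other groups.

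Per kilobase of annotated length, the highest members in RCF were Rplp1 on chromosome 8 (acidic stalk protein P1) at 2480 CPM per kilobase, Rplp0 (the stalk base P0) at 2080 and Rpl41 (the smallest large-subunit protein) at 1620. The lowest were intronless rows: Rpl35a on chromosome 1 at 3.41, Rpl39 on chromosome 14 at 5.36 and Rpl35a on chromosome 6 at 7.93 CPM per kilobase. These are also the 3 members nearest the minimum of 10 counts. Just outside it lay intronless rows of Rps29 on chromosome 13 with 6 to 24 counts, Rpl39 on chromosome 18 with 4 to 17 and Rpl38 on chromosome 8 with 3 to 19. CPM (counts per 1000000 counts of the library) is scaled here by TMM, a correction for differences in library composition.

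In GS against RCF, most members rose, by small amounts. With edgeR's quasi-likelihood test and Benjamini-Hochberg adjustment over the 14399 tested genes at a threshold of 0.05, 54 of 76 members were higher and 1 was lower, while 35.0% of all tested genes were called higher and 36.3% lower. The median fitted log2 fold change was 0.38 over the members and -0.03 over all tested genes. The large subunit had 37 of 48 members called higher and the small subunit 17 of 28. In 58 members every GS library lay above every RCF library, which held for 36.0% of all tested genes, and in 2 members every GS library lay below, against 38.2% of all tested genes. With library totals in place of TMM, the median over all genes shifted by -0.1 and the members' median became 0.28, with 49 members higher and 1 lower. Only 1 member, Rpl17, was called with a change of at least 2-fold.

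Rpl17 (uL22, which lines the exit tunnel; chr18:70970596-70975494 in Rnor_6.0) had 588, 565 and 618 CPM in GS, against 240, 231 and 255 CPM in RCF. All GS libraries lay above all RCF libraries, with a log2 fold change of 1.29 (SE 0.0387, adjusted p = 1.23e-19). Another row named for the same protein, RGD1359290, had 241, 225 and 231 CPM in GS, against 245, 246 and 239 CPM in RCF. With all rows of this protein summed, the log2 fold change was 0.76 (SE 0.0302, adjusted p = 2.79e-20), so that the size but not the direction depended on the copies. The protein-coding row RGD1562987, which overlaps Rpl17 on the same strand, was lower in GS, with a log2 fold change of -0.58 (adjusted p = 2.1e-09).

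Rpl34 (eL34, a large-subunit protein; chr2:235850334-235852708) had 595, 535 and 597 CPM in GS, against 321, 332 and 335 CPM in RCF. Its log2 fold change was 0.81 (SE 0.0358, adjusted p = 9.96e-18), without overlap between the groups. Rpl7l1, a paralog of Rpl7 whose yeast relative acts in pre-ribosomes, had 116, 117 and 112 CPM in GS, against 63.4, 67.3 and 66.3 CPM in RCF. The log2 fold change was 0.81 (SE 0.0443, adjusted p = 2.87e-16), while Rpl7 itself rose by 0.28 (SE 0.0283, adjusted p = 6.42e-10).

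The 1 member called lower was Rps4y2, an intronless row on chromosome 4 whose description names the same protein as Rps4x. It had 14.2, 14.3 and 15.1 CPM in GS, against 19.6 to 20.6 CPM in RCF, a log2 fold change of -0.46 (SE 0.104, adjusted p = 0.00025). It lies opposite Tmtc1, which was also lower in GS at -2.12 (adjusted p = 1.49e-15), and whether the counting used strand is not given in the sources used here. A second member was called lower without RCF replicate 3 or without GS_diff1 replicate 3. Rps2 (uS5, at the entry of the message channel) was not called in this comparison (log2 fold change -0.14, SE 0.11, adjusted p = 0.27), and Rps20 and Rps29 were at 0.04 and 0.11.

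**Figure D2:**
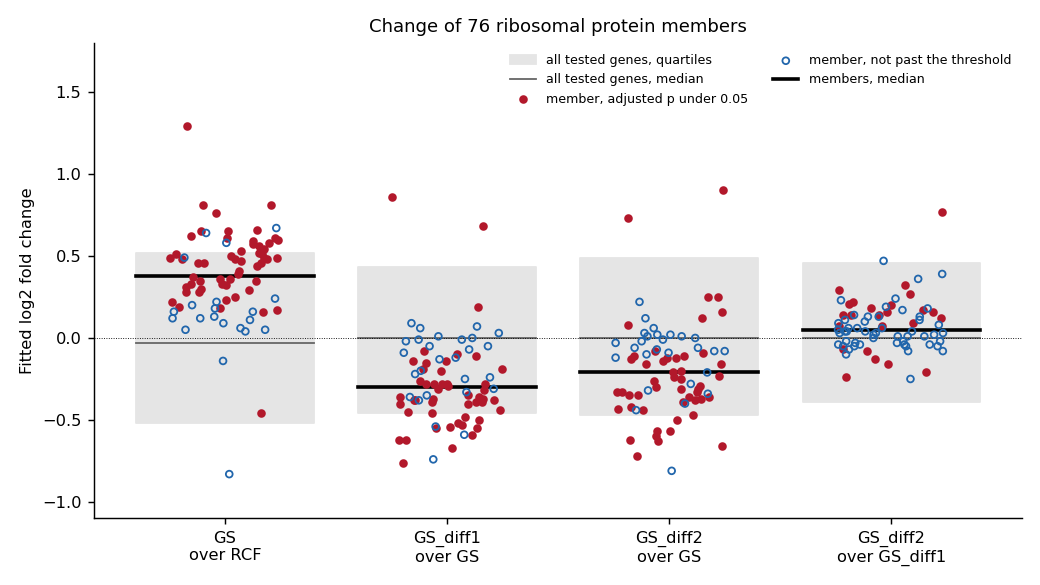
Fitted log2 fold change (y axis) of each of the 76 members in the 4 main comparisons (x axis). Filled points passed an adjusted p of 0.05 and open points did not. Black lines are the members' medians, 0.38, -0.30, -0.21 and 0.05 from left to right, and grey boxes span the quartiles of all 14399 tested genes.

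In GS_diff1 against GS, members fell. Of the 76, 46 were called lower and 3 higher, against 32.3% of all tested genes lower and 32.0% higher. The members' median log2 fold change was -0.30 and that of all tested genes was 0. No member was called with a change of 2-fold or more, and 5 of the lower ones reached 1.5-fold. The 3 largest falls among called members were Rps19, Rpl12 and the Rplp1 row on chromosome 17. Rps19 (eS19, needed for maturation of the small subunit and mutated in Diamond-Blackfan anaemia) had 131, 115 and 114 CPM in GS_diff1, against 226, 187 and 198 CPM in GS, a log2 fold change of -0.76 (SE 0.176, adjusted p = 0.00456). With all rows of this protein summed the fall was smaller, at -0.48 (adjusted p = 0.0281).

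The 3 members called higher were Rps27l, Rpl15 and the Rpl35a row on chromosome 6. Rpl15 (eL15, a core large-subunit protein) had 759, 852 and 831 CPM in GS_diff1, against 726, 697 and 724 CPM in GS. Its log2 fold change was 0.19 (SE 0.0328, adjusted p = 1.57e-05), and the libraries did not overlap. The intronless Rpl35a row had 4.57, 3.48 and 4.93 CPM in GS_diff1, against 3.12, 2.31 and 2.64 CPM in GS. Its log2 fold change of 0.68 (SE 0.256, adjusted p = 0.0221) was no longer called without GS replicate 2 or 3 or GS_diff1 replicate 1 or 3, when it lay between 0.58 and 0.67. In GS_diff2, with 5.19, 4.12 and 4.18 CPM, its rise over GS (0.73, SE 0.255, adjusted p = 0.0127) was lost without GS replicate 2 or GS_diff2 replicate 1.

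In GS_diff2 against GS, 42 members were called lower and 7 higher, against 33.7% of all tested genes lower and 33.3% higher. The members' median log2 fold change was -0.21 and that of all tested genes was 0. With library totals the members' median was -0.12, with 29 lower and 10 higher. The largest falls among called members were Rpl12, the Rplp1 row on chromosome 17 and Rpl7l1. Rpl7l1 had 76.5, 73.2 and 72.6 CPM in GS_diff2, against 116, 117 and 112 CPM in GS, a log2 fold change of -0.63 (SE 0.044, adjusted p = 1.1e-13).

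The 7 members called higher in GS_diff2 than in GS were Rps27l, the Rpl35a row on chromosome 6, Rpl22l1, Rps14, Rps25, Rps20 and Rpl9. Rps25 (eS25, a small-subunit protein needed by some viral internal entry sites) had 267, 278 and 270 CPM in GS_diff2, against 242, 234 and 252 CPM in GS. Its log2 fold change was 0.16 (SE 0.0393, adjusted p = 0.000586). Rps14, Rps20 and Rpl9 had log2 fold changes of 0.25, 0.12 and 0.08. The number called higher became 3 without GS replicate 2 and 4 without GS_diff2 replicate 1, and it was 2 at a threshold of 0.01. Rps25, Rps14, Rps20 and Rpl9 were named after their values were seen.

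GS_diff2 and GS_diff1 were close to each other. In GS_diff2 against GS_diff1, 18 members were called higher and 6 lower, against 32.1% of all tested genes higher and 31.5% lower, and the members' median log2 fold change was 0.05. Rps23 (uS12, in the decoding center) had 582, 610 and 552 CPM in GS_diff2, against 417, 486 and 499 CPM in GS_diff1. Its log2 fold change was 0.32 (SE 0.0681, adjusted p = 0.00254), without overlap. Rpl41 had 841, 923 and 882 CPM in GS_diff2, against 601, 814 and 756 CPM in GS_diff1, and its change of 0.29 (SE 0.0985, adjusted p = 0.0317) was lost without GS replicate 1, 2 or 3 or GS_diff2 replicate 2 or 3, when it lay between 0.25 and 0.29. Rps4y2 had the largest called rise, at 18.2, 15.6 and 16.9 CPM in GS_diff2 against 10.7, 8.57 and 10.5 CPM in GS_diff1, a log2 fold change of 0.77 (SE 0.107, adjusted p = 3.09e-07). Tmtc1, on the other strand, went the opposite way at -1.05 (adjusted p = 1.77e-08).

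Among the 6 called lower were Rpl7l1 (-0.24, adjusted p = 2.76e-05) and Rpl15 (-0.21, adjusted p = 2.73e-06), on the log2 scale. Without GS_diff1 replicate 1, 10 members were called lower. That replicate had the lowest GS_diff1 level of Rpl41, Rps23, Rps20, Rps27l and Rpl22l1. The spread between GS_diff1 replicates was also the widest: the median coefficient of variation over members was 3.29% in GS_diff2, 6.40% in GS_diff1, 4.23% in GS and 3.19% in RCF. Over the members with at least 100 CPM it was 2.88, 5.82, 3.57 and 2.82% in the same order. Over all tested genes with at least 100 CPM it was 2.30, 2.98, 3.02 and 2.07%. The part of this spread in the result was not tested.

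Both differentiated groups were also set against RCF, the same libraries that GS was compared with. In GS_diff1, 34 members were called higher and 9 lower, against 38.0% of all tested genes higher and 37.4% lower, with a median log2 fold change of 0.12. In GS_diff2, 48 were higher and 5 lower, against 37.1% of all tested genes higher and 35.4% lower, with a median of 0.19. With the rows of each protein summed, 36 of 84 proteins were higher and 9 lower in GS_diff1, and 52 and 7 in GS_diff2. The Rpl30 row was called lower in GS_diff1 (-0.19) and GS_diff2 (-0.21), but its protein's sum rose by 0.33 in both. Rps19 in GS_diff1 was called at -0.60, but its sum was not called at -0.15. The second Rpl7a row in GS_diff1 was called at -1.19, and its sum at -0.34.

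The stalk of the large subunit, which recruits translation factors, is built from Rplp0, Rplp1 and Rplp2 on a base shared with Rpl12. Rplp0 (chr12:46791528-46794797) had 2050, 2110 and 2070 CPM in GS_diff2 and 1810, 1840 and 1770 CPM in GS_diff1, against 2660, 2570 and 2730 CPM in GS. Its 3 RCF libraries lay between 2270 and 2280 CPM. Both differentiated groups therefore lay below GS and below RCF with no overlap. The log2 fold change was -0.35 in GS_diff2 against GS (SE 0.0238, adjusted p = 5.92e-14) and -0.55 in GS_diff1 against GS (SE 0.0239, adjusted p = 1.19e-18). Against RCF it was -0.13 in GS_diff2 (adjusted p = 1.1e-05) and -0.34 in GS_diff1 (adjusted p = 1.13e-13).

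Rplp1 on chromosome 8 (chr8:66862143-66863476) had 885, 904 and 947 CPM in GS_diff2, 892, 793 and 833 CPM in GS_diff1, 1280, 1230 and 1360 CPM in GS, and 1260, 1230 and 1210 CPM in RCF. GS and RCF overlapped, and both differentiated groups lay below them. The log2 fold change was -0.50 in GS_diff2 against GS (SE 0.043, adjusted p = 7.17e-08) and -0.62 in GS_diff1 against GS (SE 0.0431, adjusted p = 6.45e-09). GS did not pass the test against RCF (0.06, SE 0.0428, adjusted p = 0.191). The smaller Rplp1 row on chromosome 17, at 15.8 to 31.1 CPM, had -0.66 in GS_diff2 and -0.62 in GS_diff1 against GS.

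Rpl12 (uL11, at the stalk base; chr3:12009578-12011666) had 311, 338 and 361 CPM in GS_diff2, 367, 348 and 326 CPM in GS_diff1, 549, 540 and 571 CPM in GS, and 350, 357 and 379 CPM in RCF. It was high in the GS libraries alone, with log2 fold changes of -0.72 in GS_diff2 against GS (SE 0.0561, adjusted p = 1.41e-07), -0.67 in GS_diff1 against GS (SE 0.0561, adjusted p = 2.96e-07) and 0.61 in GS against RCF (SE 0.0559, adjusted p = 5.73e-07). All 4 stalk rows were called lower in each differentiated group against GS, with a median log2 fold change of -0.58 in GS_diff2 and -0.62 in GS_diff1. These rows count Rplp1 on chromosome 8 and on chromosome 17 separately. Of all tested genes, 33.7% were called lower in GS_diff2 and 32.3% in GS_diff1 against GS. The row named Rplp2 stayed under the minimum with 0 to 18 counts, and most counts of this protein fell on the rows LOC498555, without introns, and LOC100911575, with introns.

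Rpl5 and Rpl11 form a particle with 5S ribosomal RNA that also binds Mdm2, the inhibitor of p53, when ribosome assembly is disturbed. Rpl5 had 733, 752 and 763 CPM in GS_diff2, 777, 795 and 795 CPM in GS_diff1, 1030, 977 and 1020 CPM in GS, and 737, 699 and 696 CPM in RCF. Rpl11 had 410, 435 and 425 CPM in GS_diff2, 416, 442 and 391 CPM in GS_diff1, 409, 404 and 445 CPM in GS, and 319, 324 and 343 CPM in RCF. The 2 genes rose together in GS against RCF, at 0.51 (adjusted p = 5.49e-16) for Rpl5 and 0.35 (adjusted p = 1.38e-06) for Rpl11 on the log2 scale. In the differentiated groups Rpl5 was lower than in GS, at -0.43 in GS_diff2 (adjusted p = 3.46e-14) and -0.36 in GS_diff1 (adjusted p = 3.22e-12). Rpl11 did not pass the test in either, at 0.01 (SE 0.0445, adjusted p = 0.793) in GS_diff2 and -0.01 (SE 0.0446, adjusted p = 0.869) in GS_diff1.

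By role, the 21 members listed for Diamond-Blackfan anaemia, an inherited failure of red cell production, had 14 called higher and 0 lower in GS against RCF, where 35.0% of all tested genes were higher. In GS_diff1 against GS they had 2 higher and 9 lower, where 32.3% of all tested genes were lower. In GS_diff2 against GS they had 1 higher and 8 lower, where 33.7% were lower, so that the lower counts lay near the share over all genes. This list was matched by symbol and so includes intronless copies. The 1 higher row in GS_diff2 was the Rpl35a row on chromosome 6, which averaged 2.69 CPM in GS. The 8 members at the exit tunnel had 6 higher and 0 lower in GS against RCF, 0 and 5 in GS_diff1 against GS, and 0 and 4 in GS_diff2 against GS. The 4 members along the message channel had 3 and 0, 0 and 3, and 0 and 2 in the same comparisons. The median log2 fold changes of these 3 lists, in the order given, were 0.39, 0.42 and 0.37 in GS against RCF, beside 0.38 over all members. They were -0.19, -0.30 and -0.26 in GS_diff1 against GS, beside -0.30 over all members, and -0.09, -0.24 and -0.09 in GS_diff2 against GS, beside -0.21.

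Rows named as paralogs of a standard ribosomal protein did not follow the other members in every case. Rps27l (chr8:72741155-72746090) encodes a protein nearly identical to Rps27 and is a p53 target in human cells. It had 165, 177 and 175 CPM in GS_diff2 and 138, 186 and 178 CPM in GS_diff1, against 88.4, 89.2 and 100 CPM in GS. RCF had 89.4, 81.3 and 83.0 CPM. Every library of both differentiated groups lay above every GS and RCF library. Its log2 fold change was 0.90 in GS_diff2 against GS (SE 0.108, adjusted p = 6.28e-05) and 0.86 in GS_diff1 against GS (SE 0.109, adjusted p = 9.88e-05), the largest fitted rise of any member in both comparisons. GS against RCF did not pass the test (0.13, SE 0.111, adjusted p = 0.337), but it did with the libraries of both groups alone (0.16) and without GS_diff1 replicate 1 (0.13).

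Rps27 moved the other way. It had 128, 142 and 140 CPM in GS_diff2 and 128, 174 and 131 CPM in GS_diff1, against 197, 204 and 223 CPM in GS, while RCF had 132, 127 and 138 CPM. The log2 fold change was -0.60 in GS_diff2 against GS (SE 0.113, adjusted p = 0.00128) and -0.53 in GS_diff1 against GS (SE 0.113, adjusted p = 0.00308). Per kilobase, Rps27l stood at 245 in GS_diff2, 238 in GS_diff1, 132 in GS and 120 CPM per kilobase in RCF, and Rps27 at 400, 422, 609 and 387 CPM per kilobase in the same order.

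Rpl22l1 (the paralog of Rpl22; chr2:115362799-115364729) had 106, 113 and 101 CPM in GS_diff2, 81.5, 102 and 102 CPM in GS_diff1, 85.2, 88.6 and 95.4 CPM in GS, and 75.7, 69.2 and 64.6 CPM in RCF. All libraries with the viral factors lay above those of RCF. Its rise in GS_diff2 against GS (0.25, SE 0.0911, adjusted p = 0.03) was lost without GS replicate 1 or 2 or GS_diff2 replicate 1 or 2, when it lay between 0.21 and 0.26. GS_diff1 against GS did not pass the test (0.09, SE 0.0918, adjusted p = 0.444), but it did without GS_diff1 replicate 1 (0.19). The summed rows of Rpl22, none of them a member, averaged 183 CPM in GS_diff2, 176 in GS_diff1, 203 in GS and 155 in RCF.

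Rpl5l1, an intronless row on chromosome 10 described as Rpl5, had 13.4 to 14.1 CPM in GS_diff2, 14.5 to 19.9 in GS_diff1, 17.2 to 22.4 in GS, and averaged 14.5 CPM in RCF. It was called higher in GS than in RCF (log2 fold change 0.50, adjusted p = 0.000357) and lower in GS_diff2 than in GS (-0.57, adjusted p = 9.94e-05).

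**Figure D3:**
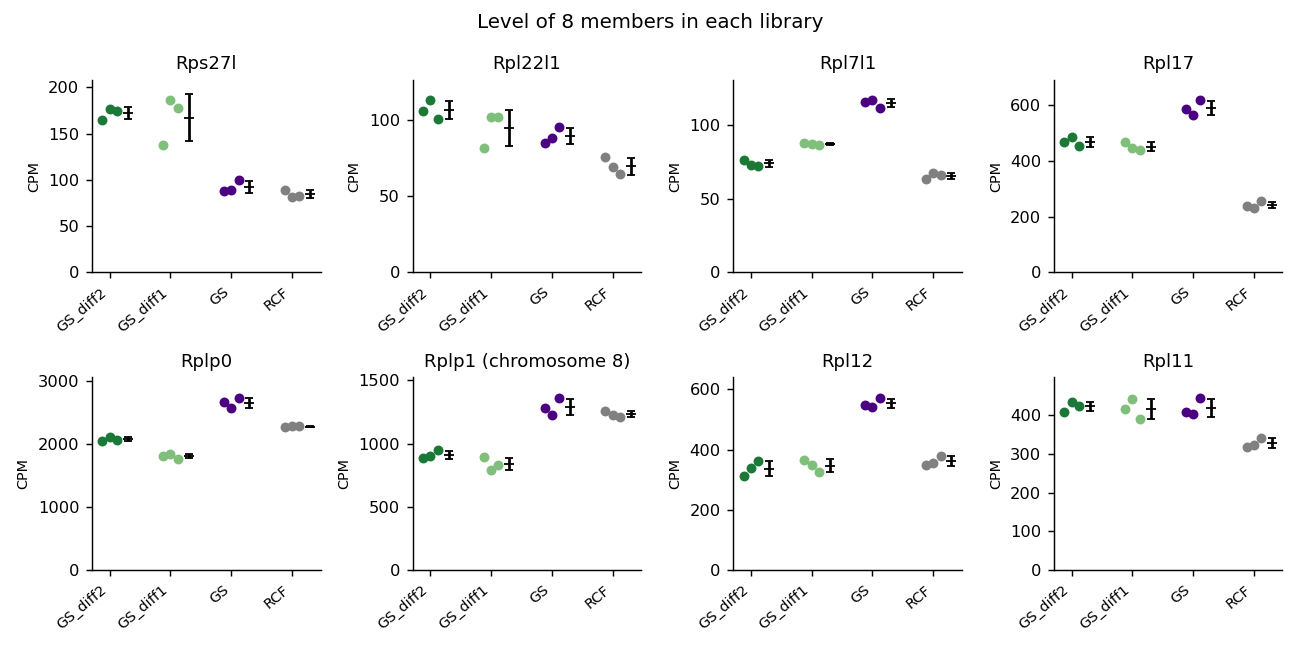
CPM on a linear axis from 0 (y axis) in each library of the 4 groups (x axis) for 8 members. Points are libraries, and the line with bars is the mean with its SD. Rps27l lies between 138 and 186 CPM in both differentiated groups, above GS and RCF, while Rplp0 and Rplp1 lie below them and Rpl12 is high in GS alone.

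Paralogs with tissue-restricted use were near 0. Rpl3l, a form of striated muscle, had 0 to 3 counts in any library, and Rpl39l, a form of male germ cells, 0 to 9. Rpl10l, an intronless relative of Rpl10 known from mouse male germ cells, had 2, 15 and 7 counts in GS_diff2, 24, 7 and 16 in GS_diff1, 15, 22 and 22 in GS, and 311, 307 and 226 in RCF. It failed the minimum through its low counts in cells with the viral factors. In the fit on rows summed by protein, Rpl10l was the only row of its protein. Its log2 fold change there in GS against RCF was -3.57 (adjusted p = 1.83e-06). Of the 25 rows under the minimum, 17 had fewer than 10 counts in every library and 3 of those had none. Only Rpl10l and a row of Rpl35a on chromosome 12, with 0 to 106 counts, exceeded 100 counts anywhere.

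For many members, other rows of the table were described as the same protein. By their descriptions, 634 rows of the table belonged to 85 cytosolic ribosomal proteins, with a median of 5 and up to 40 rows per protein. Besides, 29 members overlapped another row in position, 6 of them on the opposite strand. The members held 66 of these proteins, and for 52 they took at least 90% of the counts in every library. The clearest split was in Rps27a, which makes ubiquitin fused to a small-subunit protein. Its row (chr14:113966611-113968268) had 426, 491 and 551 CPM in GS_diff2, 574, 293 and 190 in GS_diff1, 649, 296 and 651 in GS, and 212, 202 and 593 in RCF.

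The intronless row Rps27a-ps1 on chromosome 5 had 276, 232 and 181 CPM in GS_diff2, 155, 405 and 473 in GS_diff1, 160, 508 and 162 in GS, and 535, 517 and 136 in RCF. Within each group, the libraries high on Rps27a were low on this row. The sum over all rows of the protein kept to 702, 723 and 731 CPM in GS_diff2, 729, 698 and 662 in GS_diff1, 809, 805 and 815 in GS, and 747, 718 and 729 in RCF. Alone, the Rps27a row did not pass the test in GS against RCF (log2 fold change 0.67, SE 0.555, adjusted p = 0.313), whereas the sum did at 0.15 (SE 0.0297, adjusted p = 5.91e-05).

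**Figure D4:**
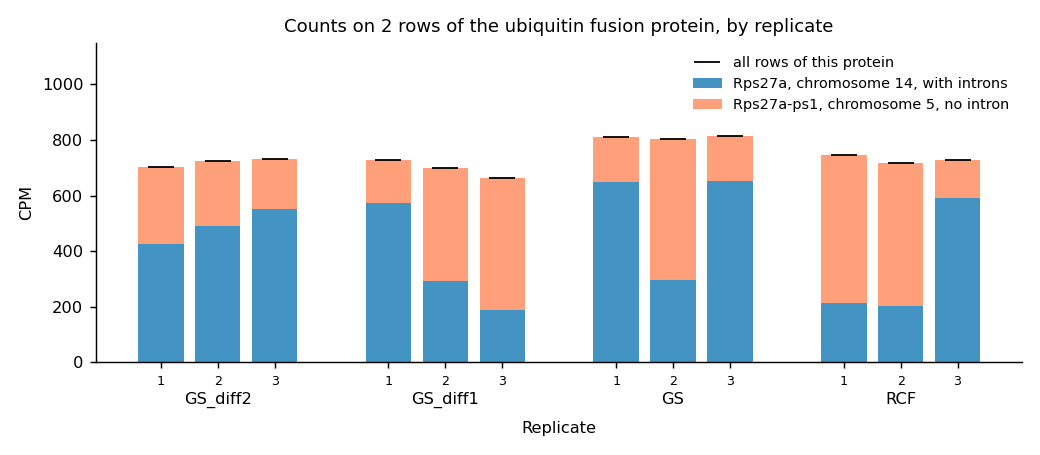
CPM (y axis) of the Rps27a row and of the intronless Rps27a-ps1 row, stacked, in each replicate of the 4 groups (x axis), with a black tick for all rows of the protein. The share of the pair on each row changes between replicates of a group, while the sum stays between 662 and 815 CPM.

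Rpl30 (eL30) showed a split that followed the groups. Its row had 191, 166 and 207 CPM in GS, against 176, 178 and 177 CPM in RCF, which overlapped (log2 fold change 0.09, adjusted p = 0.307). A further row of the protein, LOC100362027, had 152, 178 and 151 CPM in GS, against 39.2, 36.5 and 39.0 CPM in RCF, so that the sum rose by 0.70 (SE 0.0325, adjusted p = 2.08e-18).

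The 2 Rpl7a rows on chromosome 3, at chr3:4867233-4869656 and chr3:5459160-5461583, varied between replicates by up to a coefficient of variation of 70.4 and 79.2%. Rps6 averaged 13.9 CPM in GS and 12.3 CPM in RCF, and Rpl8 averaged 31.0 CPM in GS and 20.5 CPM in RCF. Both have further rows for the same protein.

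With the rows of each protein summed, 84 proteins could be tested. In GS against RCF, 62 were higher and 1 lower, where 35.0% of all tested genes, taken as single rows, were higher and 36.3% lower. In GS_diff1 against GS, 2 were higher and 56 lower, beside 32.0 and 32.3% of all tested genes. In GS_diff2 against GS, 7 were higher and 54 lower, beside 33.3 and 33.7%. In GS_diff2 against GS_diff1, 21 were higher and 6 lower, beside 32.1 and 31.5%. These 21 and 6 of 84 were smaller shares than those of all tested genes. The 1 protein lower in GS than in RCF was Rpl10l. Of proteins with no member row, Rpl10 (uL16, which completes the large subunit) averaged 784 ± 11.9 CPM in GS_diff2, 723 ± 11.3 in GS_diff1, 1120 ± 33.7 in GS and 808 ± 17.4 in RCF (SD, n = 3 each). The summed rows of Rplp2 had 85.8, 103 and 106 CPM in GS_diff2, 104, 137 and 91.2 in GS_diff1, 228, 119 and 309 in GS, and 99.2, 89.8 and 91.5 in RCF. Of these, LOC498555 averaged 99.0 CPM in GS and 74.7 CPM in RCF. LOC100911575 had 2434, 206 and 3088 counts in GS and 151 to 271 counts in RCF, so that the higher GS sum rests mainly on 2 of the 3 GS libraries. Rpsa, a small-subunit protein outside the name form, had 1360, 1360 and 1390 CPM in GS_diff2, 1310, 1280 and 1270 in GS_diff1, 1650, 1600 and 1690 in GS, and 1250, 1220 and 1230 in RCF.

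The rest of the translation machinery, given by lists chosen with earlier results of these data known, is described by counts. Of 70 ribosome biogenesis genes, which make and assemble ribosomes in the nucleolus, 47 were higher and 9 lower in GS against RCF. In GS_diff1 against GS, 49 of them were higher and 8 lower, while 46 of the 76 ribosomal protein members were lower. In GS_diff2 against GS, 10 were higher and 47 lower, and in GS_diff2 against GS_diff1, 1 was higher and 64 lower. Their median log2 fold changes were 0.34, 0.37, -0.35 and -0.73 in these 4 comparisons. Of all tested genes, 35.0% were higher and 36.3% lower in the comparison of GS with RCF. In the other comparisons, in the same order, the shares were 32.0 and 32.3%, 33.3 and 33.7%, and 32.1 and 31.5%.

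Rrp12, a factor for export and maturation of pre-ribosomes, had 53.0, 48.7 and 51.6 CPM in GS_diff1, against 41.3, 42.6 and 42.7 CPM in GS, a log2 fold change of 0.28 (adjusted p = 0.000489). In GS_diff2 it had 12.2, 13.9 and 12.5 CPM, at -1.71 against GS (adjusted p = 6.99e-19). Taf1a, a subunit of the factor that starts ribosomal RNA transcription, had 7.94, 10.4 and 9.33 CPM in GS_diff1, against 4.63, 4.63 and 4.51 CPM in GS (1.01, adjusted p = 1.41e-05). Gar1 and Nop58, proteins of small nucleolar ribonucleoproteins, had the largest rises of the list in GS against RCF, with log2 fold changes of 1.90 and 1.87. Nhp2 was called in GS_diff1 (4.22, adjusted p = 0.0406) through 1 library at 33.1 CPM, with the other GS_diff1 libraries at 0.713 and 0.522 CPM, and was at 0.05 without that library, GS_diff1 replicate 2. DESeq2 and limma did not call it.

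Of 35 tested rows of initiation factors, 18 were higher and 9 lower in GS against RCF, 22 higher and 9 lower in GS_diff1 against GS, 9 higher and 19 lower in GS_diff2 against GS, and 0 higher and 28 lower in GS_diff2 against GS_diff1. Eif1, which helps to choose the start codon, had 335, 365 and 356 CPM in GS_diff1, against 672, 669 and 723 CPM in GS (log2 fold change -0.97, adjusted p = 9.64e-21). Eif4g1, the scaffold of the cap-binding complex, had 612, 573 and 599 CPM in GS_diff1, against 311, 344 and 315 CPM in GS (0.88, adjusted p = 3.67e-19). Elongation and release factors (14 rows) had 12 higher and 1 lower, 6 and 5, 2 and 7, and 0 and 11 in the same comparisons. Mitochondrial ribosomal proteins (76 rows) had 28 higher and 23 lower, 35 and 12, 26 and 22, and 12 and 29. The 27 tested rows of translation regulators had 12 and 12, 11 and 9, 11 and 12, and 11 and 12. Over all tested genes the shares were 35.0% higher and 36.3% lower, 32.0 and 32.3%, 33.3 and 33.7%, and 32.1 and 31.5%. The higher counts of mitochondrial ribosomal proteins in GS against RCF and in GS_diff2 against GS lay near these shares.

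**Figure D5:**
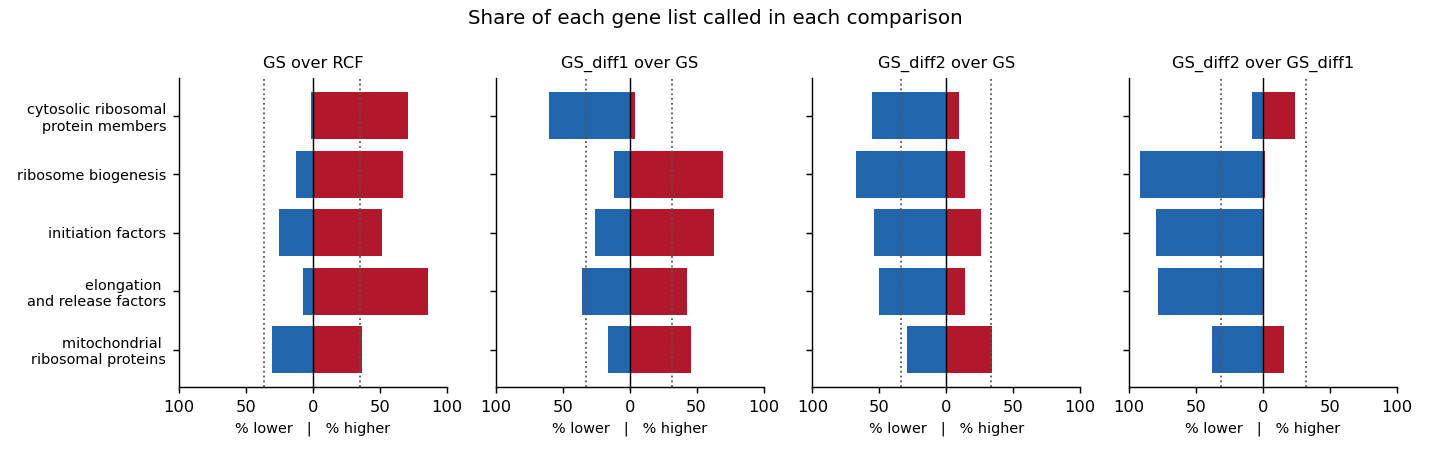
Percent of each gene list (rows) called higher, to the right, and lower, to the left, in each main comparison (panels). Dotted lines mark the percent of all tested genes called in each direction. In GS_diff1 over GS the members extend to the lower side (46 of 76) and ribosome biogenesis genes to the higher side (49 of 70).

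Eef1a1, Eef2 and Tpt1, whose messages are also known to carry a TOP motif, were lower in both differentiated groups than in GS. Eef2, which moves the ribosome along the message, had 3160, 3170 and 3150 CPM in GS_diff2 and 3480, 3520 and 3510 CPM in GS_diff1, against 4890, 4780 and 4800 CPM in GS. The log2 fold changes against GS were -0.61 in GS_diff2 and -0.46 in GS_diff1 for Eef2, -0.71 and -0.65 for Tpt1, and -0.54 and -0.28 for Eef1a1. In GS against RCF, Eef2 rose by 0.26 and Tpt1 by 0.60, while Eef1a1 fell by 0.14.

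Myc, a transcription factor that activates ribosomal genes, had 56.2, 59.4 and 58.4 CPM in GS_diff2, 55.8, 50.4 and 51.2 in GS_diff1, 144, 140 and 148 in GS, and 65.8, 68.9 and 67.9 in RCF. Only the GS libraries were high. Its relative Mycn had 47.8, 52.0 and 51.5 CPM in GS_diff2, 121, 121 and 119 in GS_diff1, 91.0, 81.2 and 88.5 in GS, and 0.154 to 0.710 in RCF. Larp1, which binds TOP messages, rose in GS_diff1 against GS (0.23, adjusted p = 4.92e-06) and fell in GS_diff2 against GS (-0.48, adjusted p = 2.64e-12).

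Over whole libraries, Sall4 had 0 counts in the 3 RCF libraries and 3689 to 5363 in GS. Gata4 had 9219 to 13138 counts in GS and 4013 to 4806 in RCF. Both were lower in GS_diff2: Sall4 averaged 69.6 CPM in GS_diff2, 225 in GS_diff1 and 246 in GS. Gata4 averaged 285 CPM in GS_diff2, 495 in GS_diff1, 595 in GS and 206 in RCF. Of 10 cardiac fibroblast markers, only Tcf21 was at 0 in a group, GS_diff2. Summed, they had 29100 to 29500 CPM in GS_diff2, 50700 to 52200 in GS_diff1, 42700 to 46000 in GS and 41100 to 44200 in RCF. Although the sum was higher in GS_diff1 than in GS, 7 of the 10 were called lower and 2 higher. Their median log2 fold change there was -0.31, and 32.3% of all tested genes were lower and 32.0% higher. In GS_diff2 against GS, 6 were lower and 2 higher, where 33.7% and 33.3% of all tested genes were. Cardiomyocyte markers (7 genes) summed to 36.0 to 37.9 CPM in GS_diff2, 9.42 to 12.1 in GS_diff1, 2.98 to 3.12 in GS and 15.8 to 17.0 in RCF, with Myh7 at 0 in GS_diff2, GS and RCF. Endothelial markers (6 genes) summed to 13.6 to 22.7 CPM over all groups, with Emcn at 0 in each. Leukocyte markers (7 genes) summed to 16.5 to 34.0 CPM over GS_diff2, GS_diff1 and GS, with 3 of them at 0 in each group, and to 102 to 109 CPM in RCF. Epithelial markers (4 genes) summed to 594 to 2260 CPM over GS_diff2, GS_diff1 and GS and to 0.845 to 1.39 CPM in RCF. Smooth muscle markers (4 genes) summed to 134 to 146 CPM in GS_diff2, 2070 to 2120 in GS_diff1, 397 to 422 in GS and 711 to 731 in RCF. The cardiomyocyte, leukocyte, epithelial and smooth muscle sums did not overlap between GS and RCF or between either differentiated group and GS, while the fibroblast and endothelial sums overlapped between GS and RCF. Their part in the ribosomal protein results was not tested.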

How the data were processed

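Total RNA was prepared with the RNeasy kit and made into libraries with Ovation RNA-seq v2, per the labels. The authors deposited whole-number read counts per gene, not normalized, with gene length and position. The submitters' processing notes list Bowtie 0.12.2 and 2 builds, Rnor_6.0 and mm8, with no role for either. Positions printed for genes are those of the table, which fits the rat build. Which program counted the reads, whether it used strand, and how it placed reads that match several copies is not given in the sources used here.

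Members and lists were chosen with earlier results of these data known. Counts were scaled by TMM, filtered by filterByExpr (14399 genes tested) and fitted in edgeR 4.0.16 (R 4.3.3) with 1 quasi-likelihood model over all 12 libraries, with two-sided contrasts and Benjamini-Hochberg adjustment at 0.05. The biological coefficient of variation was 9.72%, with 8 residual degrees of freedom. The procedure was tested on simulated data. Rows were assigned to proteins by the gene description. Named genes were the 3 largest called rises and falls per main comparison, paralogs, stalk and 5S proteins, Rps27a, the 6 widest ranges, extremes per kilobase and at the count minimum, and 2 called genes per other list and comparison; Rps27, Rpl7, Rpl30, Rpl8, Rps6, Rps2, Rpl10 and Rpl22 came with copies or parents. Some genes that this rule names are not reported here. RefSeq sequences were matched by symbol. Nothing in the labels says that replicate numbers pair samples. Deviations of same-numbered libraries correlated at -0.068 to 0.093, which cannot show whether they shared a culture or day. limma 3.58.1 (voom), DESeq2 1.42.0, library totals, no filter, only the libraries of both groups, a replicate block and leaving out each library were tried. Intervals cover counting error only.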

Additional observations from a re-analysis of the deposited data

How the results depend on the processing

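The replicate numbers are shared by the groups, but the labels do not say that they pair the samples. With the replicate block, 53 members were higher and 1 lower in GS against RCF, 3 and 47 in GS_diff1 against GS, 6 and 40 in GS_diff2 against GS, and 17 and 7 in GS_diff2 against GS_diff1. The medians kept their sign under every alternative run. Requiring also 1.5-fold left 12 higher and 0 lower in GS against RCF, 2 higher and 5 lower in GS_diff1 against GS, 2 higher and 5 lower in GS_diff2 against GS, 1 higher and 0 lower in GS_diff2 against GS_diff1, 3 higher and 3 lower in GS_diff1 against RCF, and 5 higher and 0 lower in GS_diff2 against RCF. A threshold of 0.01 gave 2 higher in GS_diff2 against GS, and 5 lower in GS_diff1 and 3 lower in GS_diff2 against RCF. With library totals the medians were 0.28 in GS against RCF, -0.237 in GS_diff1 against GS and -0.121 in GS_diff2 against GS. The lower count in GS against RCF was 2 with the libraries of both groups alone and 0 with annotated introns only, an alternative chosen after seeing the data, which leaves out Rps4y2 by construction. Leaving out each library gave 1 to 2 lower in GS against RCF, 3 to 8 higher in GS_diff2 against GS, and 4 to 10 lower in GS_diff2 against GS_diff1. Adding 3 ribosomal proteins outside the name form and the rows under the minimum gave shares of 3.80% in GS_diff2, 3.59% in GS_diff1, 4.2% in GS and 3.48% in RCF. For the 76 members alone, without mitochondrial genes in the total, the shares were 3.69% in GS_diff2 and 3.38% in RCF. Starts with a run of at least 8 bases made 18.5%, and runs of 4 within 5 bases 66.7%. Nhp2 in GS_diff2 against GS_diff1 was -4.07, lay between -4.63 and 0.12 when a library was left out, and turned to 0.12 without GS_diff1 replicate 2. Where no reason is given, the cause was not tested. Depth limits rows with few counts. The largest standard error of a member on the log2 scale was 0.635, for the first Rpl7a row.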
